A study of Mus musculus with 10 samples.

Results

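Embryoid bodies (EBs) harvested on day 13 without doxycycline (Dox) were set beside mouse pancreas of the embryonic stage E15.5. Each group had 2 arrays, which made 4 of the 10 arrays of the series, and the groups were defined by the sample labels alone. Earlier results of these data were known when the comparison was chosen. Dox(-) EBs came from Ainv18 mouse ES cells that carry a Dox-inducible bicistronic Pdx1-IRES-Ngn3 cassette, and received no Dox. Other label entries of the same EB samples named activated Notch4 as the inducible gene. The EBs were kept in serum-free medium with a B27 supplement that contained retinoic acid, received activin A at 50 ng/ml from day 2, were dissociated on day 4 and reaggregated with bFGF at 10 ng/ml beside activin A and BMP4 at 50 ng/ml each, and floated in suspension from day 6. E15.5 pancreas was whole tissue, and neither the strain nor any pooling of embryos was given in the sources used here. The remaining 6 arrays, of Dox(+) EBs (1 µg/ml), βTC6 insulinoma cells and islets, entered the fit through its estimate of the spread. Levels in these groups are given beside a few genes. The arrays of Dox(-) EBs and of E15.5 pancreas lay in separate slide ranges throughout, and a difference between batches of arrays cannot be told apart from a difference between EBs and pancreas in any result.

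EBs are free-floating aggregates in which ES cells leave the pluripotent state and form derivatives of all germ layers, often contracting heart muscle, blood, endothelium and the extraembryonic yolk sac endoderm. Gut endoderm is patterned along its length by homeobox factors, with Cdx2 in the intestine and Pdx1 in the region that buds off the pancreas. In the mouse pancreas of this age, acinar cells fill with digestive enzymes, endocrine cells leave the duct-like epithelium after a pulse of Neurog3, and a mesenchymal coat shared early with the spleen surrounds the epithelium. The comparison therefore placed tissues that arise in EBs without the induced factors against an organ built by the embryo.

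Levels are given as scaled intensity, in which 1 is the median of an array's 34967 discovery probes and values under 0.27 were set to 0.27. Between 67.2% and 68.1% of the probes were above background on the Dox(-) EB arrays, against 74.0% and 74.3% on the E15.5 pancreas arrays. The arrays of a group correlated with r = 0.993 in Dox(-) EBs and r = 0.996 in E15.5 pancreas across probes, which are not independent replicates. Their replicate standard deviation on the log2 scale was 0.187 in Dox(-) EBs and 0.143 in E15.5 pancreas. The labels call the samples biological replicates but name no separate cultures or litters, and each p-value therefore rests on a spread among samples that may be technical.

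Most of the transcriptome differed. Of 25823 probes fitted with limma, 9518 (36.9%) passed an adjusted p of 0.05 with more signal in Dox(-) EBs and 7034 (27.2%) with less than in E15.5 pancreas, which made 64.1% together. Of these, 2835 (11%) were higher and 3166 (12.3%) lower by at least 2-fold. With 1 probe for each named gene, 14760 genes were tested, of which 5785 (39.2%) were higher and 3954 (26.8%) were lower, or 66% together. At least 2-fold differences were 1801 (12.2%) and 1674 (11.3%), and these shares are the background for every gene group below. Among the 12913 named genes above background on all 4 arrays, 41.9% were higher and 23.8% lower, or 65.7% together, with 8.7% lower by at least 2-fold. The median difference over the named genes was 0.15 (log2, Dox(-) EBs minus E15.5 pancreas). The extremes lay on the side of the pancreas, with 0 genes at least 100-fold higher and 19 at least 100-fold lower in Dox(-) EBs, and 9 and 38 at least 50-fold. Where a probe was not above background on either array of a group, or saturated on both, the ratio is given as "at least", from the brighter group's mean over the higher of the dim probe's own signal and the lowest signal above background on that array. A probe above background on 1 array of the dimmer group keeps its fitted ratio, which is set in part by the value of 0.27 and has no known upper end. Of the genes given such a ratio these were Nkx6-1, Myt1, Bhlha15, Myh11 and Ptprc in EBs, and Ihh, Muc13, Tmco2, Plekhd1 and Ms4a10 in pancreas. The filter favours a difference in a gene that passed it through 1 group alone. List counts are therefore also given over the genes above background on all 4 arrays where these move them most. In whole EBs and whole organs, fewer cells of a type and less RNA per cell cannot be told apart.

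**Figure D1:**
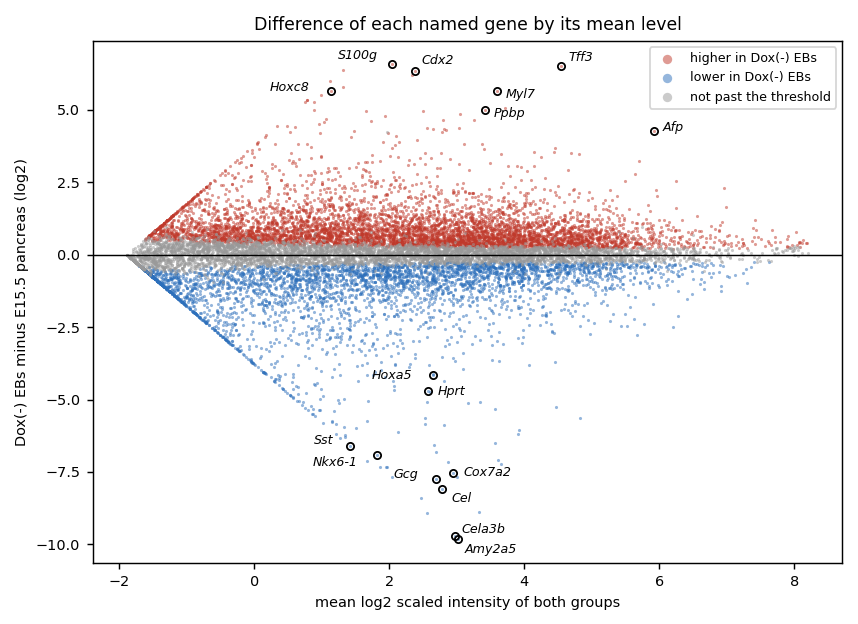
Difference of each of the 14760 named genes (vertical axis, log2 of Dox(-) EBs minus E15.5 pancreas) against its mean log2 scaled intensity over the groups (horizontal axis); red points were higher, blue points lower and grey points not past the threshold, and circled genes are named. The lower edge runs far past the upper one, with Amy2a5 and Cela3b lowest and S100g, Tff3 and Cdx2 among the highest; the straight edges at the left are probes held at 0.27 in one group.

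Acinar genes made the widest gap. Of 22 tested genes of acinar enzymes and factors, 21 were lower and 1 higher in Dox(-) EBs, with a median difference of -4.81 (log2), and all 21 were lower by at least 2-fold. Their summed level was 126 and 137 on the Dox(-) EB arrays and 2011 and 1925 on the E15.5 pancreas arrays. The promoters of such genes are read by PTF1, a complex of Ptf1a with an E-box partner and Rbpjl, whose known site pairs an E-box, CACCTG, with a TTTCCC box. Either letter run was looked for on both strands in the 250 bases before the start in RefSeq's promoter table (GRCm38.p6). CACCTG stood in 10 of the 18 lower acinar genes with an entry (55.6%) and in 17.1% of all 27025 promoters, TTTCCC in 5 (27.8%) against 21.9%, and both in 4 (22.2%) against 3.63%. The motifs do not overlap in letters, a match is only a description, and binding was not measured here. The distance between the runs was not part of the search, so a promoter with both need not hold the paired site. The 4 promoters that hold both are shown, each from a gene over 100-fold lower in Dox(-) EBs; capitals mark the matches, read on either strand.
Cela2a (chr4:141826006-141826255, minus strand): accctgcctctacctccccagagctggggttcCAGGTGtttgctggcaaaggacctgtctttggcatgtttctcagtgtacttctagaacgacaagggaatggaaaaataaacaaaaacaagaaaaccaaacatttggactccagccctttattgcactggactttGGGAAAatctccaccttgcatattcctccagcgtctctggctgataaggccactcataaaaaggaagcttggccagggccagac
Cel (chr2:28563404-28563653, minus strand): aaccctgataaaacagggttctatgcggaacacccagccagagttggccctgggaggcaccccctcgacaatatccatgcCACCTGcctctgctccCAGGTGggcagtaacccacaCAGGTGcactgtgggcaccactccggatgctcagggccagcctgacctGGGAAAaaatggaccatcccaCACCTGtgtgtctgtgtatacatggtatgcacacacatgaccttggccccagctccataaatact
Prss2 (chr6:41521526-41521775, plus strand): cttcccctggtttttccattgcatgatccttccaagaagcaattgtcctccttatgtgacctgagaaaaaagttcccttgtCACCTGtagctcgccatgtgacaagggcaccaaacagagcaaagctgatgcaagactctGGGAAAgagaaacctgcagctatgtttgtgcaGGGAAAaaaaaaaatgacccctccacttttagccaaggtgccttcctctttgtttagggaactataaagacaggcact
Cela1 (chr15:100687921-100688170, minus strand): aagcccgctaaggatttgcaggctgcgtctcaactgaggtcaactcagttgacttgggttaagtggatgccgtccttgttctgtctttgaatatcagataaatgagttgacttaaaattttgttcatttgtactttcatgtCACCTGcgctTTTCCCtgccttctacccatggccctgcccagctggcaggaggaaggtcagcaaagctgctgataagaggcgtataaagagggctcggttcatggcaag

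These 4 genes encode secreted digestive enzymes. Cela2a, an elastase, read 0.793 and 0.475 in Dox(-) EBs, against 88.3 and 86.0 in E15.5 pancreas. Cel, the bile salt-activated lipase, read 0.470 and 0.371 in EBs against 114 and 114 in pancreas. Prss2, a trypsinogen, read 0.575 and 0.656 in EBs against 66.3 and 70.2 in pancreas. In each case both EB values stood far below both pancreas values. The fitted ratios were 142-fold (adjusted p = 3.8e-09), 273-fold (adjusted p = 1.1e-11) and 111-fold lower (adjusted p = 1.1e-12), and Cela1, another elastase at 0.601 and 0.526 in Dox(-) EBs against 109.6 and 119.8 in E15.5 pancreas, was 204-fold lower (adjusted p = 1.4e-11).

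Some enzyme genes gave no signal well above background in EBs. Amy2a5, pancreatic amylase, was at 0.27 on both Dox(-) EB arrays and read 255 and 229.7 in E15.5 pancreas, where both spots were saturated. Its level was at least 883-fold lower (adjusted p = 2.2e-11). Cela3b, an elastase, was likewise at 0.27 on both EB arrays, against 227 and 227 in E15.5 pancreas, both saturated, and was at least 828-fold lower, so that the order of these genes is not known. Try5, a trypsin gene outside the list, was at 0.27 on both EB arrays against 127 and 131 in pancreas (at least 471-fold lower). The carboxypeptidase genes Cpa1 (0.478 and 0.450 in Dox(-) EBs and 225 and 210.0 in E15.5 pancreas) and Cpb1 (0.27 and 0.335 in EBs and 104 and 101 in pancreas) were at least 469-fold and at least 336-fold lower. Zg16, a zymogen granule protein, read 0.301 and 0.27 in Dox(-) EBs, against 43.5 and 48.8 in E15.5 pancreas. Amylase, elastase and trypsin genes have close copies, and what each probe reads among them was not tested.

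Transcription factors of acinar cells were lower as well. Ptf1a read 1.45 and 1.66 in Dox(-) EBs, against 30.5 and 33.3 in E15.5 pancreas, a difference of -4.36 ± 0.17 (log2, SE) or 20.6-fold lower (adjusted p = 1.5e-09). Its partner Rbpjl read 4.18 and 4.67 in EBs against 36.5 and 38.4 in pancreas, 8.47-fold lower. Bhlha15, which drives the maturation of acinar cells, read 0.27 and 0.359 in EBs against 1.50 and 1.54 in pancreas (4.89-fold lower), and Nr5a2, a nuclear receptor shared with liver and gut, read 5.09 and 4.44 in EBs against 9.85 and 11.1 in pancreas (2.20-fold lower). All these probes but Bhlha15 were above background on both EB arrays, which the enzymes named before were not in every case. Spink1, a trypsin inhibitor that other gut epithelia also make, read 72.1 and 85.0 in Dox(-) EBs, against 193 and 178 in E15.5 pancreas, where 1 spot was saturated. Dpep1, a dipeptidase, was the only gene of the list that was higher in EBs, at 4.90 and 5.04 in EBs against 2.07 and 1.70 in pancreas (2.65-fold, adjusted p = 1.4e-04).

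Hormones and secretory granule genes of the islet were lower too, 15 of 17 tested, with 1 higher and a median difference of -2.58. Gcg, which encodes glucagon, read 0.451 and 0.432 in Dox(-) EBs, against 93.2 and 97.3 in E15.5 pancreas, and was 216-fold lower (-7.75 ± 0.12 log2, adjusted p = 6.7e-12). Sst, somatostatin, was at 0.27 on both EB arrays, against 26.2 and 26.6 in E15.5 pancreas (at least 96.4-fold lower). Pyy, peptide YY of gut and islet cells, read 1.86 and 1.66 in EBs against 133 and 124 in pancreas (73.2-fold lower). No EB value of these hormones reached a pancreas value. Ghrl, ghrelin, read 4.45 and 3.73 in EBs and was 4.95-fold lower than in pancreas, while Ppy, pancreatic polypeptide, read 1.10 and 1.05 in EBs against 6.41 and 6.43 in pancreas (5.96-fold lower). Granule proteins followed, with Chga, chromogranin A, at 1.95 and 1.91 in Dox(-) EBs against 15.1 and 15.4 in E15.5 pancreas (7.91-fold lower) and Scg3 at 0.539 and 0.607 in EBs and 8.63 and 9.15 in pancreas (-3.96 ± 0.13 log2). Pam, an enzyme that amidates peptides in many secretory cells, was the gene that was higher, at 35.2 and 36.4 in EBs against 19.4 and 18.2 in pancreas (1.90-fold). Insulin genes were not analysed here because no probe with 1 gene symbol carried their names.

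Of 16 tested endocrine transcription factors, 11 were lower, 2 higher and 3 did not pass, with a median difference of -2.75. Over the 8 above background on all 4 arrays, 3 were lower and 2 higher with a median of -0.18, so that the count rests largely on genes above background on both arrays in pancreas alone. Nkx6-1, a factor of pancreatic progenitors and beta cells, read 0.27 and 0.382 in Dox(-) EBs, against 40.6 and 37.5 in E15.5 pancreas (121-fold lower on the fitted scale, with 1 EB array above background; adjusted p = 5.1e-11). Pax6 read 0.296 and 0.27 in EBs against 8.99 and 10.3 in pancreas and Nkx2-2 was at 0.27 on both EB arrays against 8.66 and 9.32 in pancreas, at least 34.0-fold and at least 32.8-fold lower. Insm1, at 0.27 on both EB arrays against 7.77 and 8.60 in pancreas, and Myt1, at 0.462 and 0.339 in EBs against 10.6 and 9.32 in pancreas, mark cells that have entered the endocrine path and were at least 29.8-fold and 25.1-fold lower. Neurod1, a target of Neurog3, read 0.590 and 0.646 in Dox(-) EBs and 3.81 and 4.37 in E15.5 pancreas (6.62-fold lower), and Isl1 read 1.64 and 1.57 in EBs and 12.7 and 12.1 in pancreas (7.75-fold lower). Rfx6, which gut and pancreatic endoderm share, was higher at 26.7 and 22.6 in EBs against 11.4 and 10.9 in pancreas (2.21-fold, adjusted p = 3.6e-05). Rfx3 was called higher by 1 probe and lower by another.

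The probes for the factors of the uninduced cassette gave little signal in either group. Neurog3, the trigger of endocrine differentiation, read 0.458 and 0.520 in Dox(-) EBs and 0.441 and 0.637 in E15.5 pancreas; the ranges overlapped and the difference of -0.12 ± 0.22 did not pass (adjusted p = 0.65). Pdx1, the defining homeobox factor of the pancreas, read 0.27 and 0.333 in Dox(-) EBs and 0.281 and 0.331 in E15.5 pancreas, was above background on only 1 pancreas array and was not tested. The Pdx1 probe did not mark the labelled organ, whereas Cpa1, Cela1, Ptf1a, Gcg, Sst and Neurod1 did. In Dox(+) EBs Neurog3 read 0.447 and 0.557, overlapping Dox(-) EBs, and Pdx1 was at 0.27 on both arrays. The paper reports that Dox induced both factors in cells with this cassette. What these 2 probes read was not tested, so their low values do not show the level of either factor.

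**Figure D2:**
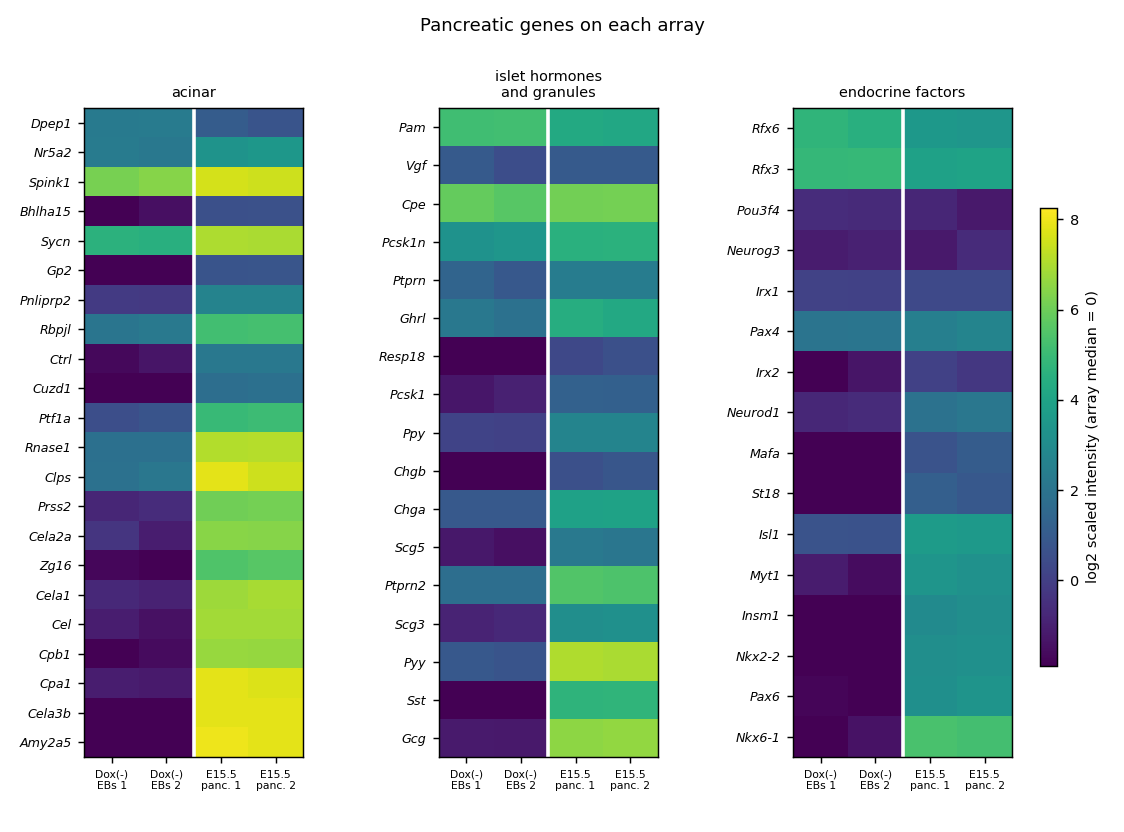
Log2 scaled intensity (colour) of the tested acinar, islet and endocrine factor genes on each array, Dox(-) EBs left and E15.5 pancreas right of the white line; genes are ordered by difference. Most rows are dark in both EB columns and light in both pancreas columns, Amy2a5, Gcg and Nkx6-1 standing at the bottom of their panels, and Dpep1, Pam and Rfx6 at the top show the opposite.

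Genes of pancreatic progenitors and ducts were split, 9 higher, 8 lower and 2 not passed of 19 tested. Tspan8, a tetraspanin of gut epithelia, read 77.8 and 74.4 in Dox(-) EBs, against 2.22 and 2.29 in E15.5 pancreas (33.8-fold higher, adjusted p = 2.6e-10). Foxa1, a pioneer factor of endoderm, read 14.3 and 14.8 in EBs against 5.43 and 5.17 in pancreas (2.75-fold higher), whereas Foxa2, its close relative, read 3.02 and 3.21 in EBs against 6.17 and 5.22 in pancreas (1.82-fold lower, adjusted p = 4.2e-05). Both were called, in opposite directions. Sox9, the factor of bipotent progenitors and duct cells, read 2.58 and 4.01 in EBs against 7.01 and 6.51 in pancreas (2.10-fold lower). Muc1, an apical mucin of acinar and duct cells, had the widest gap of the list, 1.59 and 2.22 in Dox(-) EBs against 75.6 and 74.2 in E15.5 pancreas (39.8-fold lower). Cldn4 and Krt19, general epithelial genes, were 3.49-fold and 3.03-fold higher.

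A general epithelial list was mostly higher in EBs, 14 of 25 tested genes against 7 lower. Epcam, the epithelial adhesion molecule, read 148 and 135 in Dox(-) EBs and 88.2 and 95.6 in E15.5 pancreas (1.54-fold higher), and E-cadherin (Cdh1), at 44.9 and 48.4 in EBs and 58.2 and 51.8 in pancreas, did not pass. Krt8, a keratin of simple epithelia, read 60.9 and 60.0 in EBs against 5.21 and 5.12 in pancreas (11.7-fold higher, adjusted p = 8.2e-08), and Cldn6, a claudin of embryonic epithelia, 35.4 and 32.0 in EBs against 4.15 and 3.35 in pancreas (9.02-fold higher). For these markers of epithelium in general, no EB value lay below the lowest pancreas value except in Cdh1. On the other side stood Ehf, an Ets factor of secretory epithelia, at 0.27 and 0.286 in EBs against 2.45 and 2.99 in pancreas (at least 9.61-fold lower), and Rab25 and Tjp3, 4.17-fold and 4.61-fold lower.

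Intestinal genes supplied several of the largest rises. Of 22 tested, 10 were higher and 7 lower, beside 39.2% higher and 26.8% lower over all named genes. By at least 2-fold, 10 were higher and 4 lower, against backgrounds of 12.2% and 11.3%. Over the 18 above background on all 4 arrays, 9 were higher and 4 lower. Cdx2, the homeobox factor that specifies intestine, read 45.6 and 48.2 in Dox(-) EBs, against 0.617 and 0.536 in E15.5 pancreas, 6.35 ± 0.20 (log2) or 81.5-fold higher (adjusted p = 3.7e-10). Tff3, the trefoil peptide of goblet cells, read 256 and 193 in EBs against 2.51 and 2.37 in pancreas, with 1 EB spot saturated (91.1-fold higher, adjusted p = 4.0e-09). The lowest EB value of either gene was many times the highest pancreas value. Cdh17, the liver-intestine cadherin, read 19.8 and 20.4 in EBs against 0.723 and 0.721 in pancreas (27.8-fold higher) and Muc13, a membrane mucin, 9.61 and 11.5 in EBs against 0.27 and 0.394 in pancreas (32.2-fold higher). Fabp2, the intestinal fatty acid-binding protein of enterocytes, read 8.08 and 8.80 in EBs against 0.417 and 0.507 in pancreas (18.3-fold higher, adjusted p = 2.7e-09). Vil1, the brush border protein villin, read 7.58 and 8.45 in EBs against 3.36 and 3.16 in pancreas (2.45-fold higher). Outside the list, S100g, the vitamin D-dependent calcium-binding protein of the duodenum, read 43.5 and 37.0 in Dox(-) EBs against 0.451 and 0.394 in E15.5 pancreas (95.1-fold higher, adjusted p = 3.9e-10).

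Not all intestinal genes moved together. Cdx1, the relative of Cdx2, read 3.74 and 3.40 in Dox(-) EBs and 2.75 and 2.73 in E15.5 pancreas and did not pass (adjusted p = 0.064), nor did the goblet cell mucin Muc2, at 1.28 and 1.17 in EBs and 1.09 and 1.16 in pancreas. Crypt markers were lower, with Lgr5 at 1.96 and 1.60 in EBs against 2.25 and 2.75 in pancreas (1.41-fold) and Ascl2 at 2.63 and 2.22 in EBs against 4.96 and 5.19 in pancreas (2.10-fold). Agr2, a protein disulphide isomerase of mucus-secreting cells, was at 0.27 on both EB arrays, against 7.43 and 7.17 in E15.5 pancreas (at least 26.6-fold lower). Without EB array 2, the count of lower intestinal genes was 4 in place of 7.

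Hedgehog ligands, which endoderm of the gut expresses and pancreatic endoderm represses, were on the EB side. Ihh read 19.7 and 17.4 in Dox(-) EBs, against 0.417 and 0.27 in E15.5 pancreas (55.3-fold higher, adjusted p = 2.8e-09). Shh read 3.21 and 2.63 in Dox(-) EBs and was at 0.27 on both pancreas arrays (at least 10.8-fold higher, adjusted p = 2.0e-08). Neither ligand had a pancreas value near an EB value. The hedgehog receptor and target Ptch1 read 62.4 and 56.4 in EBs against 15.6 and 16.6 in pancreas (3.69-fold higher), the target Gli1 7.42 and 7.77 in EBs against 5.21 and 5.12 in pancreas (1.47-fold higher), and Foxf1, a mesenchymal target of hedgehog in the gut, 9.96 and 10.1 in EBs against 0.414 and 0.425 in pancreas (23.9-fold higher, adjusted p = 4.6e-10). Gli2 and Gli3 did not pass.

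Foregut genes were 7 higher, 4 lower and 4 not passed of 15 tested, beside 39.2% higher and 26.8% lower over all named genes. A further 6 of the list with a probe had no group above background. Slc5a5, the iodide transporter of thyroid and stomach, read 22.2 and 23.2 in Dox(-) EBs and was at 0.27 on both pancreas arrays (at least 84.1-fold higher, adjusted p = 2.6e-10). Tff1, the trefoil peptide of gastric pits, read 11.7 and 10.7 in EBs against 1.24 and 1.12 in pancreas (9.54-fold higher). The stomach and oesophagus factor Sox2 was close to background, 0.585 and 0.517 in EBs against 0.27 on both pancreas arrays (at least 2.04-fold higher). Nkx2-1, the thyroid and lung factor, read 6.16 and 6.20 in EBs and 4.98 and 5.11 in pancreas and did not pass, and the thyroid genes Tg and Pax8 and the lung gene Sftpc were at the floor of 0.27 on all 4 arrays. Tff2, the trefoil peptide of gastric glands, went the other way, 0.27 on both EB arrays against 2.22 and 2.39 in pancreas (at least 8.41-fold lower).

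Secreted proteins of liver and yolk sac were higher as a group, 15 of 22 tested with 0 lower and a median difference of 1.32. Afp, the fetal albumin relative made by yolk sac endoderm and fetal liver, read 293 and 242 in Dox(-) EBs, with both spots saturated, against 14.3 and 13.0 in E15.5 pancreas (at least 19.5-fold higher, adjusted p = 2.1e-09). Apolipoproteins shared the direction, with Apoa1 at 132 and 132 in EBs against 19.1 and 18.6 in pancreas (6.99-fold higher) and Apob at 2.22 and 3.62 in EBs against 0.325 and 0.339 in pancreas (8.54-fold higher). Cubn and Amn, the receptor pair by which yolk sac endoderm takes up vitamin B12 and proteins, read 1.92 and 1.93 for Cubn and 0.981 and 0.729 for Amn in Dox(-) EBs and were at 0.27 on both pancreas arrays (at least 7.13-fold and at least 3.13-fold higher). Fgb, a fibrinogen chain, read 81.9 and 92.0 in EBs against 7.63 and 7.65 in pancreas (11.4-fold higher), but the other chains Fga and Fgg did not pass. Ttr, transthyretin, differed by 0.04 ± 0.09 (log2, SE) and did not pass, at 136 and 126 in EBs and 124 and 131 in pancreas.

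Albumin was not resolved. Alb read 10.7 and 30.5 in Dox(-) EBs and 26.7 and 30.7 in E15.5 pancreas; EB array 2 lay within the pancreas range and EB array 1 far below it, and the difference of -0.67 ± 0.39 did not pass (adjusted p = 0.16). Without EB array 2 the difference was -1.42 and passed (adjusted p = 3.7e-04), and the list then had 3 lower genes; without EB array 1 it was 0.09 (adjusted p = 0.74). Ahsg, a liver glycoprotein, also had EB array 1 far below the rest, 8.59 and 18.8 in EBs against 21.0 and 19.6 in pancreas, and did not pass (adjusted p = 0.087). Liver transcription factors and enzymes were split, 5 higher and 6 lower of 15 tested. Hnf4a, the hepatocyte and gut factor, read 8.90 and 8.33 in EBs against 5.74 and 5.59 in pancreas (1.52-fold higher) and Cebpa 3.98 and 4.69 in EBs against 1.55 and 1.46 in pancreas (2.87-fold higher). Tdo2, a liver enzyme of tryptophan breakdown, read 5.81 and 5.96 in EBs against 0.27 on both pancreas arrays (at least 21.8-fold higher). Hhex, a factor of liver and ventral pancreas buds, was lower at 0.598 and 0.607 in EBs against 3.66 and 3.75 in pancreas (6.15-fold), as was Nr0b2, a nuclear receptor that bile acids induce, at 1.21 and 1.05 in EBs against 15.3 and 16.5 in pancreas (14.1-fold). The hepatocyte enzyme genes Pck1, Cyp7a1 and Cyp3a11 were at 0.27 on all 4 arrays.

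Of 22 tested genes of visceral and definitive endoderm, 9 were higher, 7 lower and 6 did not pass, beside 39.2% higher and 26.8% lower over all named genes. Rhox5, a homeobox gene of extraembryonic tissue, read 3.33 and 3.81 in Dox(-) EBs, against 0.562 and 0.390 in E15.5 pancreas (7.61-fold higher). Pth1r, the parathyroid hormone receptor of parietal endoderm, read 61.0 and 56.8 in EBs against 11.9 and 12.5 in pancreas (4.83-fold higher), and Dab2, an endocytic adaptor of visceral endoderm, 25.1 and 28.3 in EBs against 12.3 and 12.8 in pancreas (2.13-fold higher). Thbd, thrombomodulin, which parietal endoderm also makes, was 2.62-fold lower. Lama1 read 2.06 and 2.21 in EBs and 2.45 and 2.44 in pancreas and did not pass, while a second Lama1 probe was called higher. Sox17, of endoderm and endothelium, read 3.09 and 3.26 in EBs against 3.80 and 4.38 in pancreas (1.28-fold lower, adjusted p = 0.028); the call was lost without either EB array and without pancreas array 2 (adjusted p of 0.11, 0.059 and 0.19). Cer1 read 0.495 and 0.27 in EBs against 0.915 and 0.725 in pancreas, and Eomes and Mixl1, of the earlier endoderm precursors, were not above background on both arrays of either group.

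Of all lists, heart muscle genes had the largest share higher in EBs. Of 24 tested, 22 were higher and 19 of them by at least 2-fold, with a median difference of 2.04; 1 was lower. Myl7, the atrial myosin light chain, read 71.3 and 102 in Dox(-) EBs, against 1.62 and 1.79 in E15.5 pancreas (5.65 ± 0.17 log2, 50.2-fold higher, adjusted p = 2.3e-10). Tnnt2, cardiac troponin T, read 5.06 and 6.96 in EBs against 0.346 and 0.497 in pancreas (14.3-fold higher, adjusted p = 3.0e-08). Myl4 read 27.3 and 37.5 in EBs against 1.67 and 1.56 in pancreas (19.8-fold higher), Actc1, cardiac actin, 51.3 and 73.5 in EBs against 5.53 and 6.22 in pancreas (10.5-fold higher) and Myl2, the ventricular light chain, 4.15 and 3.65 in EBs against 0.27 on both pancreas arrays (at least 14.4-fold higher). EB and pancreas values did not overlap for any of these genes, but all except Tnnt2 were picked for their large differences. Nkx2-5 and Tbx5, cardiac factors, were 2.91-fold and 1.94-fold higher, and Gata4, which heart, gut and pancreas share, read 3.62 and 4.60 in EBs and 3.83 and 4.25 in pancreas and did not pass. Myh6, the atrial myosin heavy chain, was at 0.27 on all 4 arrays and thus did not mark the EBs. The EB arrays were unequal in this list, with array 2 above array 1 in 19 of 24 genes by a median of 0.37 (log2); the pancreas arrays were so in 11 of 24 with a median of 0. The lower gene, Hand2, was not lower without EB array 1 or without either pancreas array.

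Smooth and skeletal muscle genes were split, 9 higher and 5 lower of 19 tested, or 7 and 2 of the 14 above background on all 4 arrays. The smooth muscle genes Acta2 (41.5 and 51.8 in Dox(-) EBs and 19.6 and 21.6 in E15.5 pancreas) and Tagln (31.9 and 34.3 in EBs and 10.9 and 10.6 in pancreas) were 2.25-fold and 3.08-fold higher, but Myh11, the myosin heavy chain of mature smooth muscle, read 0.386 and 0.348 in EBs against 3.55 and 3.37 in pancreas (9.43-fold lower). Myh8 and Mylpf, of fetal skeletal muscle, were lower, at 0.625 and 0.525 in EBs against 10.4 and 9.73 in pancreas (17.6-fold) and 1.39 and 1.18 in EBs against 4.74 and 4.84 in pancreas (3.74-fold). Myod1, the skeletal muscle regulator, was not above background in EBs (at least 1.66-fold lower).

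Megakaryocyte and platelet genes were higher in 15 of 20 tested, 12 of them by at least 2-fold, with 1 lower and a median of 1.41. Ppbp, a platelet chemokine, read 61.6 and 59.3 in Dox(-) EBs, against 1.77 and 1.99 in E15.5 pancreas (32.2-fold higher, adjusted p = 6.4e-11), and Pf4, platelet factor 4, 98.6 and 89.2 in EBs against 8.65 and 8.18 in pancreas (11.2-fold higher). The integrin Itga2b, which also marks the earliest blood progenitors, read 5.93 and 6.64 in EBs against 0.341 and 0.326 in pancreas (18.8-fold higher), and the platelet receptors Clec1b (28.2 and 25.2 in EBs against 1.24 and 1.34 in pancreas) and Gp9 (17.6 and 16.4 in EBs against 0.886 and 0.946 in pancreas) were 20.7-fold and 18.5-fold higher. The EB values of these genes lay many times above their pancreas values on both arrays.

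**Figure D3:**
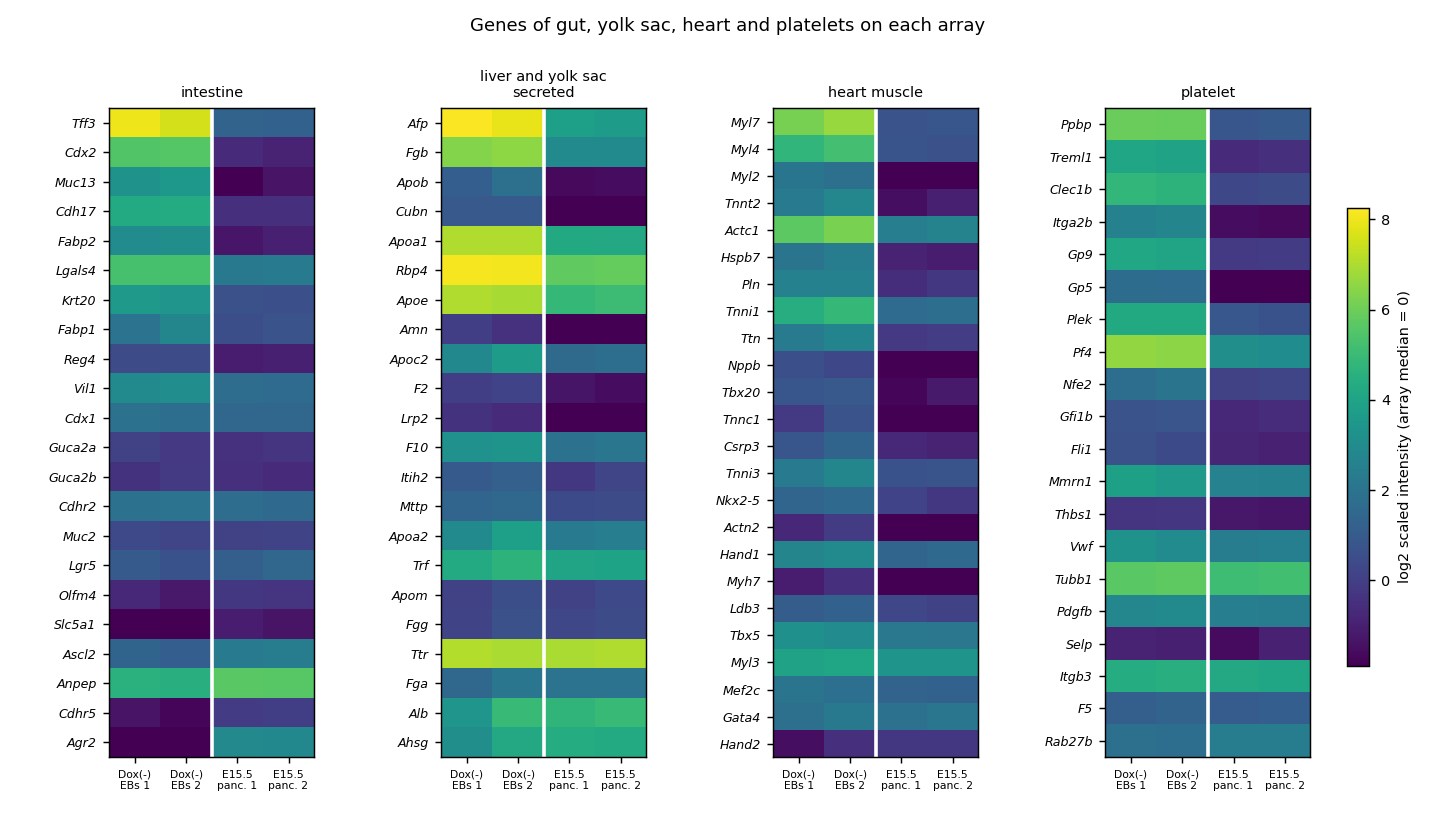
Log2 scaled intensity (colour) of the tested intestinal, liver and yolk sac, heart muscle and platelet genes on each array, Dox(-) EBs left and E15.5 pancreas right of the white line; genes are ordered by difference. Tff3, Afp, Myl7 and Ppbp are light in both EB columns and dark or darker in both pancreas columns, Agr2 and Rab27b at the bottom show the opposite, and Alb and Ahsg differ between the EB columns.

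Red cell genes leaned to the pancreas, with a median of -0.76. The regulators Gata1 (3.70 and 3.31 in Dox(-) EBs and 0.526 and 0.494 in E15.5 pancreas), Nfe2 (3.39 and 4.00 in EBs and 1.08 and 1.18 in pancreas) and the receptor Epor (1.71 and 1.82 in EBs and 0.507 and 0.518 in pancreas) were 6.86-fold, 3.26-fold and 3.44-fold higher. Gata1 and Nfe2 also act in megakaryocytes, the group described before. Products of maturing red cells were lower, with the embryonic globins Hba-x at 2.68 and 3.29 in EBs against 13.0 and 11.2 in pancreas (4.06-fold) and Hbb-y at 1.39 and 1.64 in EBs against 17.4 and 18.6 in pancreas (11.9-fold), and Alas2, the haem synthesis enzyme of red cells, at 3.43 and 3.07 in EBs against 40.5 and 40.3 in pancreas (12.4-fold). In all, 4 genes were higher and 9 lower of 14 tested, beside 39.2% higher and 26.8% lower over all named genes. Globin genes share sequence, and which copies a probe reads was not tested. Red cell transcripts were thus measured in both groups.

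Macrophage and leukocyte genes were 13 higher, 7 lower and 7 not passed of 27 tested, or 12 higher and 4 lower of the 23 above background on all 4 arrays. Higher were Stab2, a scavenger receptor of sinusoidal endothelium and some macrophages (15.6 and 14.2 in Dox(-) EBs and 2.78 and 2.96 in E15.5 pancreas, 5.20-fold), and the signalling adaptors Tyrobp (20.9 and 20.0 in EBs and 6.86 and 5.71 in pancreas, 3.27-fold) and Fcer1g (14.4 and 13.6 in EBs and 3.91 and 4.50 in pancreas, 3.35-fold). The mannose receptor Mrc1, of resident macrophages, was lower at 1.74 and 1.49 in EBs against 6.99 and 7.04 in pancreas (4.35-fold), and the neutrophil granule enzymes Mpo and Elane were at 0.27 on both EB arrays, against 2.94 and 2.90 for Mpo and 1.55 and 1.54 for Elane in E15.5 pancreas (at least 10.7-fold and at least 5.63-fold lower). Ptprc, the pan-leukocyte antigen CD45, was near background, 0.390 and 0.27 in EBs against 0.453 and 0.538 in pancreas (1.52-fold lower, adjusted p = 0.036), and its call was lost without EB array 2 (adjusted p = 0.26) and without pancreas array 1 (0.058) or 2 (0.19).

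Endothelial genes leaned to the pancreas, 13 lower and 8 higher of 27 tested with a median of -0.28. Pecam1 read 2.05 and 2.72 in Dox(-) EBs, against 8.49 and 9.40 in E15.5 pancreas (3.78-fold lower, adjusted p = 3.4e-07). Kdr, a VEGF receptor, read 16.7 and 17.0 in EBs against 23.7 and 24.3 in pancreas (1.43-fold lower) and Cdh5, vascular cadherin, 0.277 and 0.27 in EBs against 0.450 and 0.416 in pancreas (at least 1.58-fold lower). Lyve1, a receptor of lymphatic vessels and some macrophages, had the widest gap, 2.50 and 2.82 in EBs against 15.7 and 14.2 in pancreas (5.64-fold lower). Pdpn, podoplanin, also of mesothelium and other epithelia, was 4.01-fold higher.

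Mesenchymal factors were split. Of 20 tested genes of pancreatic mesenchyme and spleen, Foxf1 and Ptch1 included, 7 were higher, 6 lower and 7 did not pass. Barx1, of stomach and spleen-pancreas mesenchyme, read 0.868 and 0.867 in Dox(-) EBs, against 21.2 and 19.4 in E15.5 pancreas (23.4-fold lower, adjusted p = 5.8e-10). Tlx1, which the spleen primordium needs, read 0.27 and 0.281 in EBs against 5.10 and 5.18 in pancreas (at least 18.4-fold lower). Aldh1a2, the retinoic acid synthesis enzyme of mesenchyme, read 1.17 and 1.06 in EBs against 9.85 and 10.1 in pancreas (8.95-fold lower). Nkx3-2, another factor of this mesenchyme, read 0.914 and 1.10 in EBs and 1.06 and 1.01 in pancreas and did not pass. Tlx1 read 4.99 and 4.72 in Dox(+) EBs, close to its pancreas level, so that its signal was not particular to pancreas samples. The summed level of the list was 223 and 215 in Dox(-) EBs and 220.5 and 223 in E15.5 pancreas; the part of spleen tissue in the other differences was not tested.

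Fibrous stroma was present on both sides, with 13 of 24 tested genes higher and 6 lower. Col1a1, the main fibrous collagen, read 127 and 137 in Dox(-) EBs and 72.8 and 74.7 in E15.5 pancreas (1.79-fold higher), Fn1, fibronectin, 184 and 183 in EBs and 32.5 and 30.6 in pancreas (5.82-fold higher) and Lum, lumican, 76.6 and 75.1 in EBs and 20.5 and 20.6 in pancreas (3.70-fold higher). Col3a1 was saturated in both groups. Matrix genes of looser tissue were lower, Mfap5 at 1.23 and 1.08 in EBs against 16.1 and 15.3 in pancreas (13.6-fold) and Ogn at 1.20 and 1.38 in EBs against 9.50 and 9.85 in pancreas (7.53-fold). Postn read 29.3 and 28.4 in EBs and 28.8 and 28.8 in pancreas, a difference of 0.00 ± 0.09. Pdgfra, a fibroblast receptor, was 1.45-fold higher (adjusted p = 0.0089), a call lost without EB array 2 (0.052) or pancreas array 2 (0.091).

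Of 17 tested nerve and glia genes, 10 were lower and 4 higher, with a median of -0.78, but over the 11 above background on all 4 arrays 4 were lower and 4 higher with a median of 0.19. S100b, a glial calcium-binding protein, was at 0.27 on both EB arrays, against 12.7 and 13.1 in E15.5 pancreas (at least 47.1-fold lower, adjusted p = 3.4e-11). Sox10, the neural crest and glial factor, read 0.656 and 0.727 in EBs against 5.30 and 5.07 in pancreas (7.50-fold lower) and Prph, of peripheral neurons, 1.14 and 1.14 in EBs against 6.30 and 6.31 in pancreas (5.52-fold lower). Stmn2, which neurons and endocrine cells both express, read 0.27 and 0.320 in EBs against 5.79 and 5.44 in pancreas (at least 18.8-fold lower). The summed level of the list was 102 and 107 in Dox(-) EBs and 118 and 111 in E15.5 pancreas. Brain and neural tube genes were 9 lower and 5 higher of 17 tested, or 4 and 4 of the 11 above background on all 4 arrays, and 11 more with a probe had no group above background. Dcx, at 0.27 on both EB arrays against 5.95 and 5.08 in pancreas, was at least 20.1-fold lower, Sox1 (1.82 and 1.69 in EBs and 1.58 and 1.65 in pancreas) and Pax3 (10.6 and 11.5 in EBs and 12.5 and 12.5 in pancreas) did not pass, and Neurog2 was at 0.27 on all 4 arrays.

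Of 25 genes of the pluripotent state and germ cells with a probe, 14 were tested and the others had no group above background. Pou5f1, the pluripotency factor Oct4, read 4.04 and 3.75 in Dox(-) EBs and 2.28 and 2.48 in E15.5 pancreas (1.63-fold higher, adjusted p = 4.6e-04), Nanog was above background on 1 array of each group and Dppa3 was at 0.27 on all 4. Prdm1, a transcriptional repressor that acts in germ cells and gut epithelium, read 15.2 and 14.6 in EBs against 1.11 and 1.18 in pancreas (13.0-fold higher). In all, 4 genes were higher, 2 lower and 8 did not pass. Kidney and mesothelium genes were split evenly, 5 higher and 5 lower of 14 tested, with Osr1, of early mesoderm, at 0.990 and 1.16 in EBs against 9.26 and 8.56 in pancreas (8.30-fold lower) and Wt1, of mesothelium, at 0.352 and 0.618 in EBs and 0.733 and 0.879 in pancreas, not passed except without EB array 2 (adjusted p = 0.015).

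Hox genes were 10 higher, 7 lower and 10 not passed of 27 tested. These counts lie near the shares over all named genes, 39.2% higher and 26.8% lower. In the Hoxc cluster 6 of 7 tested genes were higher and 0 lower, whereas in the Hoxa cluster 0 of 5 were higher and 3 lower; Hoxb had 2 higher and 3 lower of 9, and Hoxd 2 and 1 of 6. Hox genes lie in 4 clusters and their order along a cluster follows the body axis, low numbers in front. Hoxc8 read 14.2 and 17.1 in Dox(-) EBs, against 0.288 and 0.336 in E15.5 pancreas (5.64 ± 0.19 log2, 50.0-fold higher, adjusted p = 5.8e-10). Hoxc9 read 2.30 and 2.68 in EBs and was at 0.27 on both pancreas arrays (at least 9.21-fold higher), and Hoxc6 read 1.60 and 1.82 in EBs against 0.753 and 0.806 in pancreas (2.19-fold higher). Hoxa5 stood opposite, 1.61 and 1.36 in Dox(-) EBs against 26.9 and 26.0 in E15.5 pancreas (-4.16 ± 0.18 log2, 17.9-fold lower, adjusted p = 4.1e-09). Hoxa4 was at 0.27 on both EB arrays against 1.11 and 1.28 in pancreas (at least 4.34-fold lower), and Hoxb6 read 4.15 and 4.48 in EBs against 13.5 and 13.9 in pancreas (3.17-fold lower). Hoxa13 was at 0.27 on all 4 arrays. The count of higher Hox genes rested on small differences, being 6 without EB array 1 or without either pancreas array, and the clusters were not tested against each other.

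**Figure D4:**
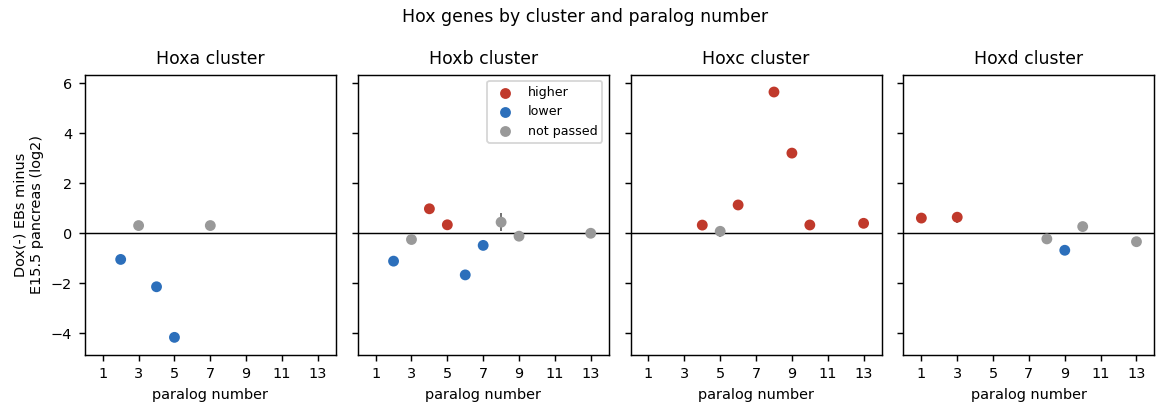
Difference of each tested Hox gene (vertical axis, log2 of Dox(-) EBs minus E15.5 pancreas, with bars of 1 SE) by paralog number (horizontal axis) in the 4 clusters; red was higher, blue lower and grey not passed. Hoxc8 and Hoxc9 lie highest in the Hoxc panel, Hoxa5 and Hoxa4 lowest in the Hoxa panel, and in the Hoxb panel Hoxb6 lies lowest.

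Proliferation genes were mostly a little lower in EBs, 15 of 28 tested against 5 higher, but only 2 by at least 2-fold. Mki67 read 51.1 and 49.1 in Dox(-) EBs, against 92.2 and 94.0 in E15.5 pancreas (1.86-fold lower, adjusted p = 5.4e-06), Top2a 19.9 and 21.0 in EBs against 35.7 and 38.6 in pancreas (1.82-fold lower) and Cdc6, a licensing factor of DNA replication, 4.67 and 4.72 in EBs against 14.1 and 13.6 in pancreas (2.96-fold lower). Imprinted growth genes were 10 higher and 5 lower of 19 tested. Igf2 was called higher (1.82-fold), with 1 EB spot missing and the other saturated. Peg10 read 14.9 and 19.3 in EBs against 1.98 and 1.90 in pancreas (8.76-fold higher), while the growth-limiting RNA H19, at 110.4 and 114 in EBs against 234 and 209 in pancreas with both pancreas spots saturated, and the cell cycle inhibitor Cdkn1c, at 20.9 and 23.7 in EBs against 94.3 and 88.2 in pancreas, were lower (H19 at least 1.97-fold, Cdkn1c -2.03 ± 0.19 on the log2 scale). Dlk1 read 79.5 and 88.1 in EBs and 118 and 126 in pancreas and did not pass.

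The genes that equip a cell for secretion were lower, 17 of 23 tested of the unfolded protein response list, 10 of them by at least 2-fold, with a median of -0.81. Erp27, a disulphide isomerase relative of the pancreas, read 0.287 and 0.329 in Dox(-) EBs, against 48.8 and 49.6 in E15.5 pancreas (at least 159.9-fold lower, adjusted p = 1.8e-12), while a second Erp27 probe was not called in either direction. The chaperone partners Dnajc3 (0.871 and 0.902 in EBs against 14.3 and 18.7 in pancreas), Sdf2l1 (12.7 and 11.6 in EBs against 68.3 and 64.7 in pancreas) and Manf (13.2 and 15.6 in EBs against 73.0 and 74.8 in pancreas) were 18.5-fold, 5.48-fold and 5.15-fold lower, and Xbp1, the factor that expands the secretory apparatus, 15.9 and 17.3 in EBs against 35.2 and 40.5 in pancreas (2.27-fold lower). The 4 higher genes included Hspa5, the chaperone BiP, at 50.1 and 51.3 in EBs against 37.3 and 36.5 in pancreas (1.37-fold), and the stress genes Ddit3, at 20.1 and 22.4 in EBs against 7.67 and 7.72 in pancreas (2.76-fold), and Trib3 (2.97-fold), so that the list did not move as a whole.

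Hypoxia and glycolysis genes were 13 higher and 4 lower of 22 tested, and EB array 2 lay above EB array 1 in 18 of the 22. Bnip3, a mitophagy receptor induced in low oxygen, read 81.2 and 86.7 in Dox(-) EBs, against 19.6 and 21.4 in E15.5 pancreas (2.04 ± 0.27 log2, adjusted p = 1.1e-04), and Adm, adrenomedullin, 2.69 and 3.17 in EBs against 0.619 and 0.712 in pancreas (4.39-fold higher). Bnip3 and Adm were picked for their large differences, and the defining members Car9, Slc2a1 and Vegfa were divided. Car9, a carbonic anhydrase used as a hypoxia marker, read 1.56 and 1.51 in EBs against 51.6 and 54.0 in pancreas (34.4-fold lower, adjusted p = 4.6e-10), Slc2a1 read 6.46 and 10.3 in EBs and 5.47 and 7.90 in pancreas and did not pass, and Vegfa, at 10.1 and 11.1 in EBs against 9.13 and 8.95 in pancreas, was 1.17-fold higher with an adjusted p of 0.049, which was lost without EB array 2 (0.26), pancreas array 1 (0.12) or pancreas array 2 (0.16).

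Lysosome and metal response genes were higher in 18 of 25 tested, with 3 lower and a median of 0.66. Mt2, a metallothionein, read 149.5 and 172 in Dox(-) EBs, against 15.9 and 17.9 in E15.5 pancreas (9.48-fold higher, adjusted p = 3.3e-08), Ftl1, ferritin light chain, 224 and 226 in EBs against 70.7 and 71.2 in pancreas (3.17-fold higher) and Ctsd, a lysosomal protease, 103 and 106 in EBs against 46.6 and 49.7 in pancreas (2.17-fold higher). Slc7a11, the cystine transporter, was 4.40-fold lower. Cholesterol synthesis genes were 9 higher, 1 lower and 7 not passed of 17 tested, and the defining members Hmgcs1 (2.12 and 2.41 in EBs and 1.75 and 1.63 in pancreas) and Sqle (2.05 and 2.58 in EBs and 1.95 and 2.25 in pancreas) were among those that did not pass. Mvd, of the mevalonate path, was 2.64-fold higher and Fdft1, squalene synthase, 2.50-fold lower.

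Insulin-like growth factor and Wnt genes were split, 11 higher and 9 lower of 26 tested, beside 39.2% and 26.8% over all named genes. Igf1, the ligand, read 7.79 and 6.41 in Dox(-) EBs, against 23.1 and 22.3 in E15.5 pancreas (3.21-fold lower, adjusted p = 9.0e-07). Its binding protein Igfbp2 read 111 and 106 in EBs against 18.7 and 18.6 in pancreas (5.81-fold higher, adjusted p = 8.9e-09), and Igfbp6 was at 0.27 on both EB arrays against 0.950 and 0.956 in pancreas (at least 3.48-fold lower). The Wnt antagonists were divided too, Sfrp1 at 85.8 and 81.5 in EBs against 19.1 and 16.5 in pancreas (4.70-fold higher) and Sfrp2 at 0.564 and 0.731 in EBs against 3.86 and 4.52 in pancreas (6.51-fold lower). The Wnt target Axin2 was at 0.27 on all 4 arrays.

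**Figure D5:**
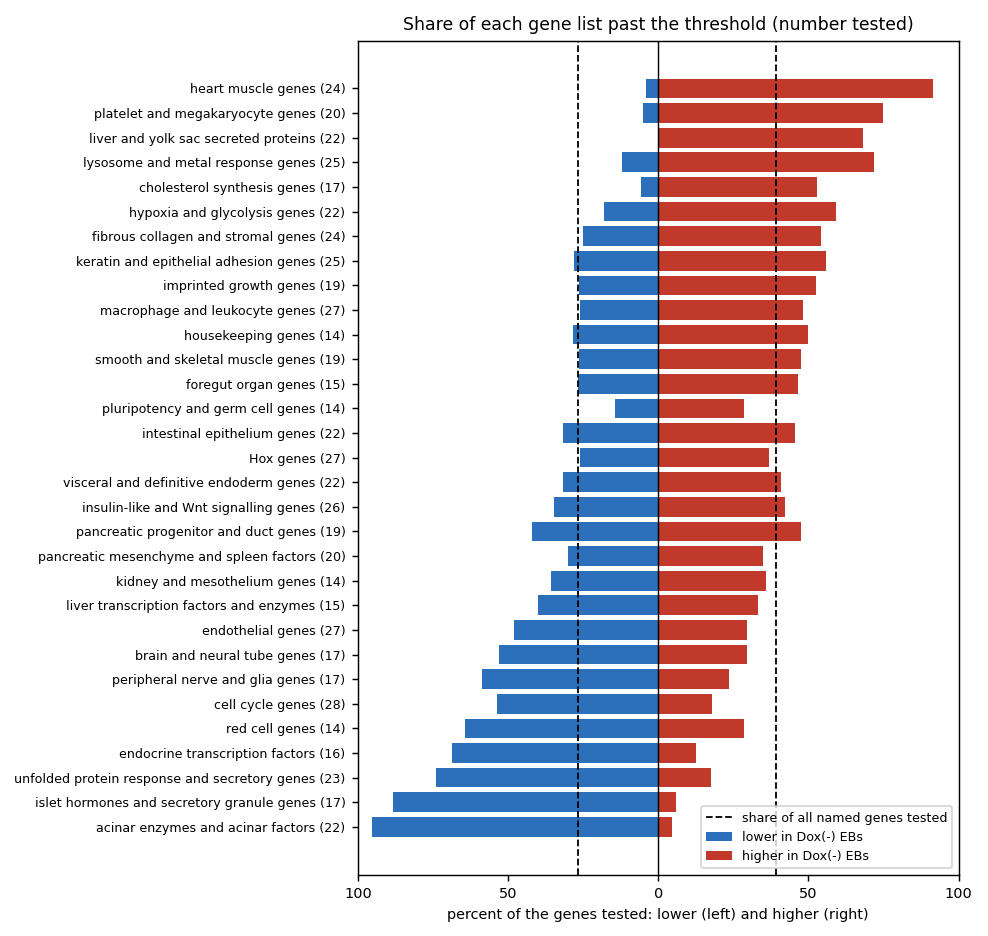
Percent of the tested genes of each of 31 lists that were lower (left, blue) and higher (right, red) in Dox(-) EBs than in E15.5 pancreas, with the number tested in brackets; dashed lines mark the shares over all named genes, 26.8% lower and 39.2% higher. Heart muscle genes reach furthest to the right, with 22 of 24, and acinar genes furthest to the left, with 21 of 22.

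Some of the largest gaps fell in genes that most cells use. Hprt, a purine salvage enzyme of nearly all cells, read 1.11 and 1.23 in Dox(-) EBs, against 29.7 and 31.5 in E15.5 pancreas (-4.71 ± 0.12 log2, 26.2-fold lower, adjusted p = 6.5e-11). The cassette of these ES cells was inserted at the hprt locus, and Dox(+) EBs, which carry it too, read 2.46 and 2.48. Whether the insertion bears on the Hprt level was not tested. Among 14 tested housekeeping genes, 7 were higher and 4 lower; Tbp read 7.06 and 6.41 in EBs against 4.93 and 4.72 in pancreas (1.39-fold higher) and Actb was saturated in both groups. Cox7a2, a subunit of the respiratory chain, read 0.404 and 0.790 in Dox(-) EBs, against 111 and 97.5 in E15.5 pancreas (184-fold lower, adjusted p = 4.1e-09), and 0.751 and 0.641 in Dox(+) EBs. It read 153 and 201 in βTC6 cells and 79.1 and 74.2 in islets. A group of further genes was chosen after their values were seen, because Dox(+) EBs read as low as Dox(-) EBs. Hspe1, a mitochondrial chaperonin, read 1.72 and 2.00 in Dox(-) EBs, against 119 and 129 in E15.5 pancreas, and 1.11 and 1.39 in Dox(+) EBs. Unlike Cox7a2, it was also low in βTC6 cells (5.13 and 6.19) and islets (3.45 and 2.69), so that only the pancreas arrays were high. Thumpd1 read 0.27 and 0.305 in Dox(-) EBs against 22.5 and 22.6 in pancreas, and 0.27 and 0.27 in Dox(+) EBs, and Haus1, of the mitotic spindle, 0.345 and 0.367 in EBs against 22.6 and 22.5 in pancreas, and 0.27 and 0.357 in Dox(+) EBs. Thumpd1 read 21.3 and 24.8 in βTC6 cells and 16.3 and 14.1 in islets. Haus1 read 37.3 and 35.5 in βTC6 cells and 2.86 and 2.73 in islets. Ndufs5-ps, a pseudogene that shares sequence with its parent gene, was at 0.27 on both Dox(-) EB arrays, against 35.1 and 39.8 in E15.5 pancreas (at least 137-fold lower). The part of array batch and of the probes in these values was not tested.

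The remaining genes among the 15 largest rises and falls had no list of their own. Mreg, which acts in organelle transport, read 42.3 and 44.5 in Dox(-) EBs, against 0.617 and 0.557 in E15.5 pancreas (74.0-fold higher), and Gpbar1, the bile acid receptor of the cell surface, 11.2 and 10.6 in EBs against 0.27 on both pancreas arrays (at least 40.5-fold higher). Pitx1, the homeobox factor of the hindlimb, read 10.5 and 11.4 and Foxq1, a forkhead factor, 8.65 and 13.0 in Dox(-) EBs, with 0.27 on the pancreas arrays (at least 40.4-fold and at least 39.2-fold higher). Tmco2, Plekhd1 and Ms4a10 were 64.5-fold, 45.3-fold and 39.0-fold higher on the fitted scale, where pancreas values at 0.27 enter each ratio. On the pancreas side, Cbs, which makes cystathionine from homocysteine, read 0.27 and 0.347 in Dox(-) EBs, against 49.1 and 48.2 in E15.5 pancreas (at least 157-fold lower), and Elapor1 0.305 and 0.27 in EBs against 58.6 and 59.5 in pancreas (at least 206-fold lower). All of these had an adjusted p of at most 4.3e-09. A passed threshold and no overlap between the groups were conditions of the rule that picked them.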

How the data were processed

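RNA of 10 samples in 5 groups was hybridised to 1-colour CodeLink mouse whole genome arrays, 1 array a sample. Scanner output came from CodeLink Expression Analysis (version 4.1.0.29054, per the file headers). In it the authors' software subtracted local background from each spot's mean and divided the result by the median of the 34967 discovery probes, which is the scaled intensity deposited. Control spots were left out, and masked, contaminated and irregular spots were set missing. Intensities were floored at 0.27 and put on the log2 scale. Probes above background on both arrays of Dox(-) EBs or of E15.5 pancreas were kept (25916, of which 93 had both spots of a group missing and were dropped). limma 3.58.1 in R 4.3.3 was fitted with 1 mean per group over all 10 arrays (trended, robust eBayes; Benjamini-Hochberg adjustment over all fitted probes, threshold 0.05), after it was tested on simulated data. The spread thus rests on 2 arrays in each of 5 groups, and the number of arrays limits the precision. Python 3.11.15 was used for summaries.

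A gene was read from the probe with its 1 symbol that had the highest mean log2 level. The platform annotation, updated through gene IDs to RefSeq GRCm38.p6, gave 1 symbol to 21615 probes, several to 681 and none to 12671. Of the genes in the 31 lists, some in more than 1 list, 672 of 769 had a probe. The comparison and the lists were chosen with earlier results of these data known. Named genes were drawn from the 15 largest rises and falls with no missing spot and no overlap between the groups, the defining members of each list, up to 4 further members with the largest differences, Pdx1, Neurog3, Alb, Afp, Fabp2, Shh and Foxa2, and list genes that did not pass. Not every defining member was given. Other scalings, background corrections, floors, filters and fits, a 2-fold minimum, the replicate number as a block and the loss of each array were tried as alternatives.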

Additional observations from a re-analysis of the deposited data

How the results depend on the processing

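The counts of 9518 higher and 7034 lower probes stayed within 1.5 times under every alternative tried except the 2-fold minimum, which left 2835 and 3166, so that 47.2% of the called probes were higher in Dox(-) EBs in place of 57.5%. The floor of 1 gave 6931 and 4973, and a filter of all 4 arrays above background 8664 and 5079 (63% higher). Leaving out 1 array of either group gave between 7813 and 8173 higher and between 5954 and 6348 lower probes. The replicate number as a block gave 9385 higher and 6950 lower. Across probes, the difference between the 2 arrays of Dox(-) EBs correlated at 0.027 with that of E15.5 pancreas. With 2 arrays a group, this cannot show whether samples of the same number shared more than the number. The block is not read as a pairing. The scaling alternatives moved the median difference over all probes, 0.13 in log2, to between 0.06 and 0.09. No named gene changed sign past the threshold under any of the alternatives.

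Depth of signal limited the lowest genes. Dox(-) EBs had fewer probes above background than E15.5 pancreas, and of the probes kept, 1023 were above background on both arrays in Dox(-) EBs alone and 3370 in pancreas alone. A ratio of those not above background on either array of the dimmer group is a lower bound. Among all genes that the naming rule picked, calls were lost at a floor of 1 in 13 (Cer1, Sox2, Ptprc, Cdh5 and Igfbp6 of those named here), at a floor of 0.1 in 5 (Sox17, Acta2, Ptprc, Cdh5, Vegfa), under normexp in 4 (Ptprc, Cdh5, Vegfa, Actb), without a background filter in 3 (Pdgfra, Ptprc, Kdr), under quantile normalization in 2 (Vegfa, Actb), and in 1, Vegfa, under each of median scaling over the probes above background, the filter of all 4 arrays, plain eBayes and the replicate block. The 2-fold minimum removed 23.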
